A study of Mus musculus with 30 samples.

Results

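The axon guidance ligands and receptors described here are the rows of the expression table whose gene symbols name the semaphorins of classes 3 to 7, the plexins, the ephrins, the Eph receptors, the netrins, the Slits, the Robos, the Unc5 family, the neuropilins, *Dcc*, *Neo1*, *Rgma* or *Rgmb*. The rule on symbols found 58 of 14225 transcripts, which stand for 57 of 13483 genes, and it used no measured value. RNA was measured in CD11b+ microglia that had been isolated with magnetic beads from the whole brain of C57BL/6J mice, in 30 libraries that form 10 groups of 3. Dams had received saline (Saline) or, for maternal immune activation (MIA), poly(I:C), a mimic of viral double-stranded RNA. Offspring of both were taken at E17, P7 and P20. At P60, each kind of offspring came as a control group on normal chow (Saline + CTRL and MIA + CTRL) and as a group with repopulated microglia (MG-REP). Mice of the latter had eaten chow with PLX5622, an inhibitor of the CSF1 receptor on which microglia depend for survival, and then control chow while microglia repopulated the brain. A library held 1 litter at E17, a pool of 3 brains at P7 and 1 brain at P20 and P60, so the spread between libraries does not mean the same at each age.

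Guidance cues are secreted or membrane-bound proteins that steer growing axons and migrating cells through receptors acting on the cytoskeleton. Semaphorins bind plexins, and class 3 semaphorins use neuropilins as co-receptors. Ephrins bind Eph receptors on a neighbouring cell and can signal in both directions. Netrins attract through Dcc and repel through Unc5 receptors, Slits act through Robos, and the repulsive guidance molecules Rgma and Rgmb bind neogenin and also serve as co-receptors for bone morphogenetic proteins. Besides neurons, endothelial cells, glia and macrophages use members of these families, and microglia are known for Nrp1 and several plexins.

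The deposited values are TPM (a share of all transcripts, scaled by transcript length), and the depth of each library is unknown from them. All 6 microglia markers used (*C1qa*, *Csf1r*, *Cx3cr1*, *Fcrls*, *P2ry12* and *Tmem119*) were present in every group, at sums of 12177 TPM and above. Libraries of a group had correlations of log2(TPM + 1) between 0.956 and 0.993. E17 MIA library 1 stood apart with a neuron marker sum of 1397 TPM against 198 to 391 TPM in the other 5 E17 libraries. Saline + MG-REP library 1 had the lowest value of all 30 libraries for 23 of the 58 transcripts. It also had the most transcripts at 0 TPM, 309 against at most 215 elsewhere. In that group the neutrophil and monocyte marker sum was 86.4, 4391 and 315 TPM in libraries 1 to 3. The value of library 2 was the highest of all 30, followed by 1301 TPM in E17 MIA library 2. Counts of calls that turn on E17 MIA library 1 or Saline + MG-REP library 1 are given with and without it. So are the calls of single members that were followed through this omission.

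Members of the guidance families ranged from near 0 to well above the typical transcript. Their mean over the 30 libraries had a median of 8.64 TPM, against 15.8 TPM over all 14225 transcripts. Means were under 1 TPM for 9 members, 1 to 10 TPM for 21, 10 to 50 TPM for 18 and 50 TPM or more for 10. The 10 most abundant were *Nrp1* (180.2 TPM), the co-receptor for class 3 semaphorins and VEGF, *Sema7a* (159.7 TPM), a membrane-anchored semaphorin, *Epha2* (94.1 TPM), *Plxnd1* (84.8 TPM), a plexin best known from blood vessels, *Rgmb* (70.3 TPM), *Sema4g* (70.2 TPM), *Sema3g* (66.9 TPM), *Plxnb1* (60.6 TPM), *Efnb3* (53.7 TPM) and *Rgma* (51.5 TPM). The table holds semaphorins as 16 transcripts of 15 genes (*Sema4c* has 2), 10 plexins with *Nrp1*, 7 ephrins, 10 Eph receptors, 3 netrins, the receptors *Dcc*, *Unc5b* and *Unc5d*, 2 Slits, 3 Robos and both *Rgma* and *Rgmb*. Another 2 transcripts meet the rule by their symbols but belong to no guidance family: *Plxna4os1*, a noncoding RNA antisense to *Plxna4*, and *Unc5cl*. Since the libraries were not stranded, reads of *Plxna4* and *Plxna4os1* cannot be told apart where they overlap.

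The table does not cover these families evenly. Of 76 mouse genes that meet the rule in RefSeq, 57 had a transcript here. All 37 genes with 1 curated transcript were among them, but only 20 of 39 with more than 1, and the others, *Neo1* and *Nrp2* among them, were not analysed here. The mean over libraries had a median of 15.0 TPM for the 37 transcripts of genes with 1 curated transcript and 3.69 TPM for the 21 of genes with several. A low value of *Plxnb2* or *Sema4d*, for instance, is therefore the level of 1 listed transcript and may not be that of the gene. The study had sorted each transcript into a module by age and condition, and 24 of 58 members (41.4%) carried the label of immature microglia, against 32.9% of all transcripts.

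**Figure D1:**
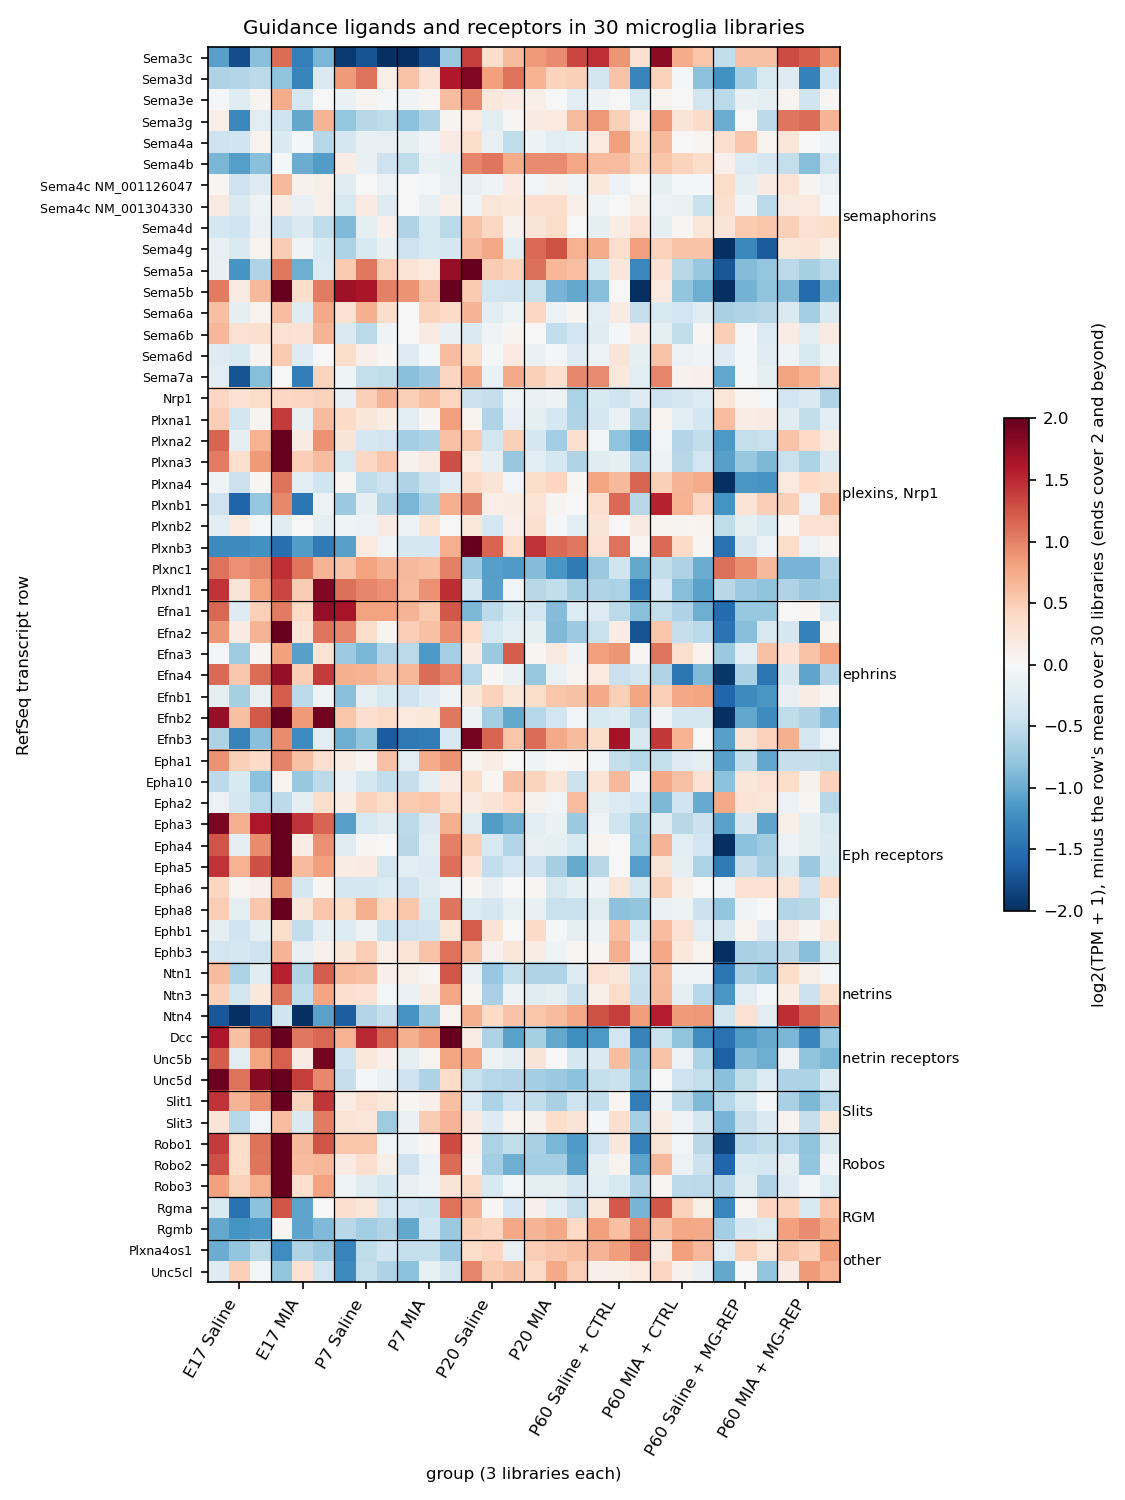
Heat map of log2(TPM + 1) minus the mean of the row for 58 transcripts (rows, by family) in 30 libraries (columns, by group). E17 MIA library 1 holds the highest value for 25 members, and Saline + MG-REP library 1 the lowest value for 23.

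From E17 to adulthood in Saline offspring, 14 members rose and 20 fell between E17 and P60 Saline + CTRL (24.1% and 34.5% of the 58). The question was which members were higher in fetal and which in adult microglia isolates. Calls are from limma's moderated test on log2(TPM + 1) at a Benjamini-Hochberg adjusted p under 0.05 over all 14225 transcripts, of which 22.1% rose and 25.4% fell. The median change was 0.03 for the members and -0.01 for all transcripts on the log2 scale, which understates changes of transcripts near 0 TPM. In bulk RNA, fewer cells of a type and less RNA per cell cannot be told apart.

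All 3 Robos with a row were called lower in adults. *Robo1* was at 22.2, 10.3 and 17.8 TPM in the 3 E17 Saline libraries and at 5.66, 9.38 and 2.47 TPM in Saline + CTRL (log2 change -1.45, adjusted p = 0.0204). *Robo2* and *Robo3* fell by 1.30 (adjusted p = 0.0471) and by 1.05 (adjusted p = 0.00771), the latter from under 2 TPM. *Slit1*, a ligand of the Slit and Robo families, fell by 1.64 (adjusted p = 0.00162). *Robo1* lost its call without E17 Saline library 1 (log2 change -1.23, adjusted p = 0.0843), E17 Saline library 3 (-1.38, 0.0581) or Saline + CTRL library 3 (-1.03, 0.125). The calls of *Robo2* and *Robo3* were not followed through such omissions.

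Of the 3 netrin receptors 2 fell, while a netrin rose. *Dcc*, the attractive netrin receptor of commissural axons, was at 10.4, 4.64 and 8.0 TPM at E17 and at 0.69, 1.87 and 0.47 TPM at P60 (log2 change -2.12 ± 0.50, SE, adjusted p = 0.00133). *Unc5d*, a receptor of the repulsive Unc5 family, was at 6.67, 3.20 and 5.97 TPM and then at 0.42, 0.45 and 0.13 TPM (log2 change -2.20 ± 0.42, SE, adjusted p = 0.000127). Neither receptor's groups overlapped, and both ended near 0. *Unc5b*, the most abundant of the 3, was not called, at 70.6 ± 31.955 TPM and 41.5 ± 22.1 TPM (SD, n = 3 each), and its groups overlapped. The opposite course was taken by *Ntn4*, a netrin of basement membranes, with 4.99, 2.90 and 4.92 TPM at E17 and 46.04, 49.6 and 33.7 TPM at P60 (log2 change 3.07 ± 0.35, SE, adjusted p = 1.72e-07). *Ntn1*, the classical netrin, was at 20.8 ± 10.2 TPM and 21.5 ± 5.85 TPM (SD, n = 3 each), and its groups overlapped. *Dcc*, *Ntn1* and *Efnb1* stand in a list of neurite genes that the study chose on these samples, so their directions are not independent evidence for that list.

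Among plexins and neuropilin, 5 of 10 fell and 2 rose. *Plxnc1*, the receptor of Sema7a, had 31.3, 27.5 and 28.9 TPM at E17 and 8.03, 10.5 and 6.45 TPM at P60, a fall with little spread (log2 change -1.72 ± 0.21, SE, adjusted p = 3.41e-07). *Plxnd1* fell by 1.72 ± 0.31 (SE, adjusted p = 8.39e-05), from 131 ± 54.3 TPM to 38.1 ± 11.0 TPM (SD, n = 3). *Nrp1* fell by 0.67 ± 0.16 (SE, adjusted p = 0.000998) and was still at 140.5, 131 and 145 TPM in the 3 adult libraries. The risers were *Plxnb3* (log2 change 1.72, adjusted p = 0.00168) and *Plxna4*, a receptor of class 3 and class 6 semaphorins, which went from 20.9, 16.2 and 22.7 TPM to 39.3, 35.4 and 51.2 TPM (log2 change 1.03, adjusted p = 0.00631).

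Of 16 semaphorin transcripts, 6 were called higher, 1 lower and 9 not at all, beside 22.1% and 25.4% of all transcripts. In MIA offspring 3 of the 16 rose and 3 fell over the same ages. *Sema3c*, a secreted class 3 semaphorin, rose by a log2 change of 2.11 ± 0.49 (SE, adjusted p = 0.00108) from 9.0, 5.21 and 10.9 TPM to 57.1, 38.0 and 25.3 TPM. *Sema4b*, a transmembrane semaphorin, rose from 17.5, 15.2 and 18.4 TPM to 52.5, 51.9 and 46.2 TPM (log2 change 1.51, adjusted p = 1.97e-06). The other risers were *Sema7a* (1.24, adjusted p = 0.0221, with groups that overlap), *Sema3g* (0.94, adjusted p = 0.0321), *Sema4g* (0.76, adjusted p = 0.0445) and *Sema4a* (0.70, adjusted p = 0.00962). *Sema4a* was near 0, at 0.26, 0.27 and 0.76 TPM at E17 and 0.92, 1.96 and 1.13 TPM at P60. The member that fell was *Sema5b* (log2 change -1.67, adjusted p = 0.0223). *Sema3g* was called no longer without E17 Saline library 2 (0.53, adjusted p = 0.248), Saline + CTRL library 1 (0.76, 0.131) or Saline + CTRL library 2 (0.95, 0.0648), and *Sema5b* lost its call without E17 Saline libraries 1 (-1.45, 0.0815) or 3 (-1.66, 0.0515) or Saline + CTRL library 3 (-1.04, 0.165).

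Ephrins and Eph receptors split. *Efnb1* and *Efnb3*, transmembrane ephrins of the B class, rose by a log2 change of 1.00 (adjusted p = 0.00368) and 1.51 (adjusted p = 0.0232). *Efnb2*, another B-class ephrin, known from arteries, fell by 1.56 (adjusted p = 0.000709). The A-class ephrins *Efna4*, *Efna2* and *Efna1* fell by 1.14, 1.24 and 1.00 (adjusted p = 0.00732, 0.0338 and 0.0205). Of the Eph receptors, *Epha3*, *Epha5*, *Epha1* and *Epha8* fell, the largest change being that of *Epha3* (log2 change -1.78, adjusted p = 0.00214), and *Epha10* rose by 0.84 (adjusted p = 0.017). Levels were low for *Epha8* (1.93, 0.84 and 2.04 TPM at E17, 0.76, 0.18 and 0.21 TPM at P60). The same held for *Epha10* (0.33, 0.55 and 0.09 TPM, then 1.32, 2.02 and 0.84 TPM). *Efnb3* was not called without E17 Saline library 2 (1.30, adjusted p = 0.0874) or Saline + CTRL library 2 (0.96, 0.172).

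*Rgmb* had the smallest p-value of all members in this comparison. It rose from 29.8, 26.6 and 27.4 TPM at E17 to 109.5, 94.5 and 123 TPM at P60, a log2 change of 1.92 ± 0.20 (SE, adjusted p = 3.25e-08). *Plxna4os1* also rose (log2 change 1.63, adjusted p = 6.19e-06).

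Other cell types changed over the same ages. Summed over their marker lists (9 astrocyte and 9 oligodendrocyte lineage markers with a row), astrocyte markers were 6.05 times and oligodendrocyte lineage markers 8.22 times as high in Saline + CTRL as in E17 Saline, and microglia markers 1.60 times. Border macrophage markers (5 with a row) were at 0.357 times their E17 level, with groups that do not overlap, and 4 of these 5 were called lower. Neuron markers were at 0.860 times and endothelium and mural markers at 0.807 times their E17 level, with groups that overlap. Of 11 neuron transcripts 3 rose and 2 fell, and of 11 endothelium and mural transcripts 2 rose and 3 fell. *Tubb3* was at 204, 103 and 185 TPM at E17 and at 22.8, 30.65 and 8.46 TPM at P60. *Nefl* was at 3.27, 4.81 and 3.25 TPM and then at 62.5, 88.0 and 31.0 TPM. Of the 9 astrocyte markers, 5 had a mean under 1 TPM at E17 Saline, and of the oligodendrocyte lineage markers *Mobp* and *Pdgfra* did. *Xist*, expressed in female cells, was at 111 to 127 TPM in E17 Saline and at 172 to 193 TPM in P20 Saline libraries. In 2 of 3 Saline + CTRL libraries it was at 0.29 TPM or less, and it was not fitted as a covariate for E17 to P60. The part of these cell types and of sex in the rises and falls of guidance members was not tested.

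**Figure D2:**
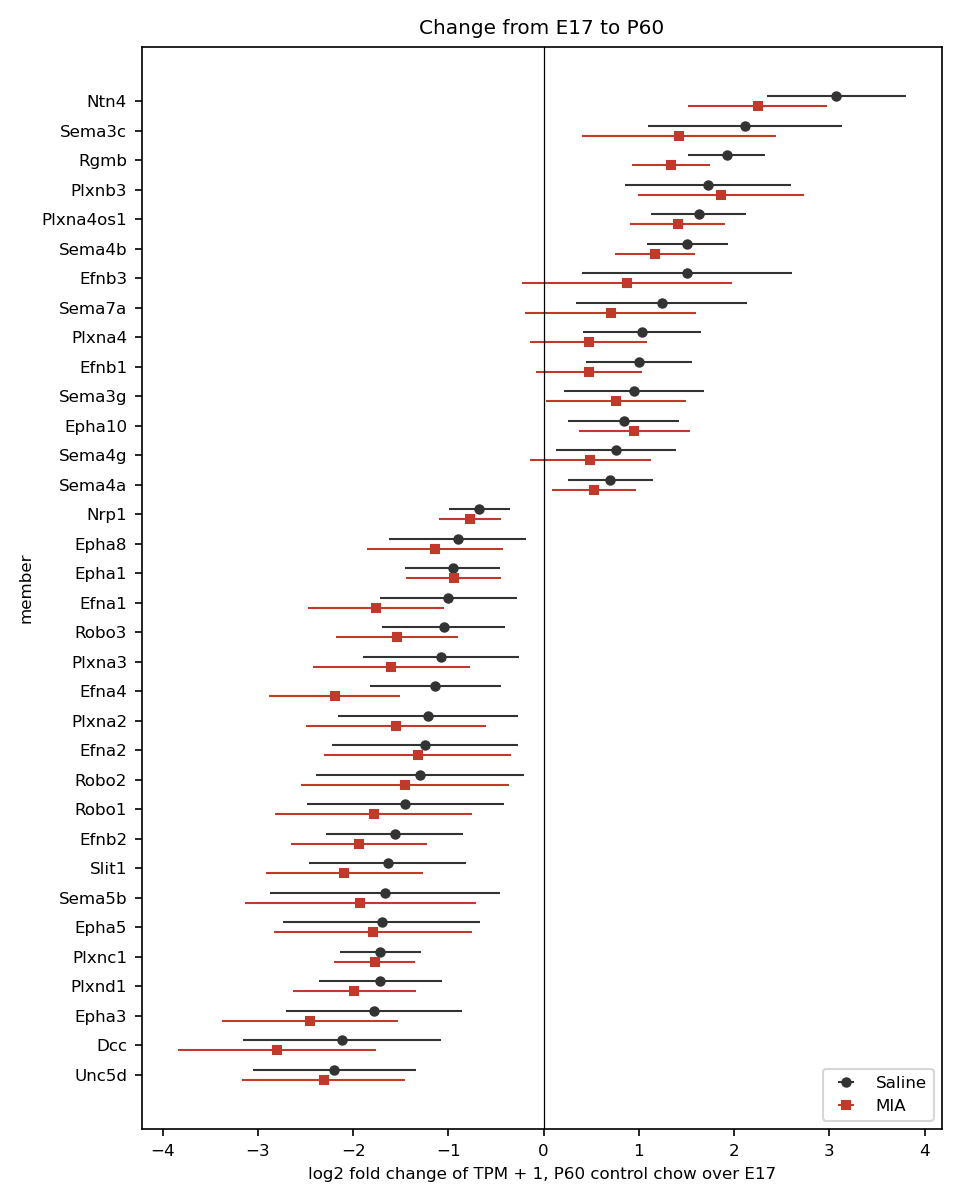
Log2 change of log2(TPM + 1) from E17 to P60 (horizontal axis) for the 34 members called in Saline offspring (rows), with 95% intervals of the limma fit. Black circles are Saline and red squares MIA offspring. The change runs from 3.07 for *Ntn4* to -2.20 for *Unc5d* in Saline, and no member passed the test of a difference between the offspring.

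Between P7 and P20 in Saline offspring, 11 members rose and 8 fell (19.0% and 13.8% of the 58), where 16.1% of all transcripts rose and 20.1% fell. More members were called in this step than in the steps before and after it, as was so for all transcripts. From E17 to P7 there were 4 calls (4.32% of all transcripts, in either direction): *Epha3* (log2 change -1.95, adjusted p = 0.0127), *Unc5d* (-1.84, adjusted p = 0.0114) and *Sema6b* (-0.74) fell and *Sema4b* rose (0.81). From P20 to P60 only *Sema3d*, a secreted semaphorin, was called (log2 change -1.62, adjusted p = 0.0386; 3.51% of all transcripts). Of the calls over all transcripts, 71.5% were rises from E17 to P7 and 29.1% from P20 to P60. After quantile normalization these shares were 58.2% and 43.7%, and after median-ratio scaling 63.9% and 44.8%. Adjacent steps share the libraries of the age between them. Each of the 4 calls of the first step was lost without E17 Saline library 1 (adjusted p from 0.0588 to 0.137) and without P7 Saline library 1 (0.0631 to 0.145), and 3 or more libraries had this effect on each. *Sema3d* was lost without P20 Saline library 1 (log2 change -1.32, adjusted p = 0.162), P20 Saline library 3 (-1.71, 0.0883), Saline + CTRL library 1 (-1.63, 0.0931) or Saline + CTRL library 3 (-1.15, 0.208).

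The timing set the members apart. *Dcc* was at 5.06, 9.62 and 7.26 TPM at P7 and at 3.11, 1.43 and 0.78 TPM at P20 (log2 change -1.63, adjusted p = 0.0138), whereas *Unc5d* and *Epha3* were already low at P7. *Plxnc1* remained at 21.5, 25.6 and 23.2 TPM at P7 and then reached 8.17, 6.10 and 5.93 TPM at P20 (log2 change -1.67, adjusted p = 1.28e-06). These 2 receptors thus fell in the same step. *Dcc* lost this call without P7 Saline library 2 (-1.44, adjusted p = 0.0586) or P20 Saline library 3 (-1.36, 0.0656).

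The largest rises from P7 to P20 were those of *Sema3c* (log2 change 2.68, adjusted p = 0.000175) and *Efnb3* (2.35, adjusted p = 0.00141), then *Plxnb3* (1.59), *Unc5cl* (1.48), *Ntn4* (1.46), *Rgmb* (1.18) and *Sema4b* (1.07). *Efnb3* was at 163, 96.5 and 63.2 TPM in the 3 P20 Saline libraries and *Plxnb3* at 103, 47.8 and 27.0 TPM. In these libraries oligodendrocyte lineage markers summed to 5359, 3101 and 1983 TPM, in the same order. Their part in the 2 rises was not tested. *Plxnb3* was not called without P20 Saline library 1, the one with the most of these markers (1.09, adjusted p = 0.0547), and *Sema5b*, which fell by 1.52 (adjusted p = 0.0457), lost its call without P7 Saline libraries 1 (-1.39, 0.127) or 2 (-1.43, 0.110) or P20 Saline libraries 2 (-1.38, 0.125) or 3 (-1.36, 0.121).

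In MIA offspring, 8 members rose and 26 fell from E17 to P60, where 19.3% of all transcripts rose and 28.8% fell. *Ntn4* (log2 change 2.25), *Plxnb3* (1.86), *Plxna4os1* (1.41), *Rgmb* (1.34) and *Sema4b* (1.17) rose the most among those whose groups do not overlap, and *Dcc* (-2.80), *Epha3* (-2.45), *Unc5d* (-2.31), *Efna4* (-2.19) and *Slit1* (-2.09) fell the most. The change itself did not pass the test of a difference between MIA and Saline offspring for any member (0% of all transcripts were called by limma, and 4 members and 226 transcripts had an unadjusted p under 0.05). The smallest p-values of this difference belonged to *Epha2* (log2 -0.71), a *Sema4c* transcript (NM_001126047, -0.61) and *Efna4* (-1.06), each with an adjusted p of 1. Without E17 MIA library 1 the counts in MIA offspring were 11 and 15.

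Maternal immune activation moved no member past the threshold at E17, P7 or P20, or at P60 on control chow. The comparison asked whether the cues and receptors of microglia differ between MIA and Saline offspring. By limma, 0% of all transcripts were called at E17, and likewise 0% at P7, 0% at P20 and 0% in the CTRL groups at P60. Among the members, 3, 0, 1 and 2 had an unadjusted p under 0.05 at these ages, of 585, 335, 457 and 256 transcripts in all. At E17 they were *Sema4c* (NM_001126047, log2 difference 0.49, unadjusted p = 0.0122), *Rgmb* (0.49, 0.02) and *Ntn4* (0.76, 0.0411), with an adjusted p of 0.754 each. Without E17 MIA library 1 these differences were 0.31, 0.16 and 0.38, each with an adjusted p of 1. At P20 it was *Sema4g* (0.64, 0.0487) and at P60 *Epha2* (-0.49, 0.026) and *Efna4* (-0.77, 0.0299), the latter 2 with an adjusted p of 1. The smallest p-values at P7 belonged to *Sema6b* (log2 difference 0.31), *Slit3* (0.41) and *Unc5cl* (0.35).

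At E17, 50 of 58 members were higher in MIA, with a median log2 difference of 0.47 against 0.098 over all transcripts, and E17 MIA library 1 carried this difference. Without that library the median was 0.02, against 0.019 over all transcripts. The library was above all other 5 E17 libraries for 41 of 58 members, and its sum over the members was 2553 TPM, against 920 to 1864 TPM in the others. Its microglia markers summed to 12177 TPM, below the 14736 to 21268 TPM of the others, and its neuron markers were 4.95 times their mean, *Tubb3* being at 813 TPM against 103 to 204 TPM. All 9 neuron markers with a row had a mean of 1 TPM or more at E17. The part of neuronal RNA in the members' values was not tested.

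The members did not follow that library alike. *Dcc* was at 47.6 TPM there and at 6.77 and 7.22 TPM in the other MIA libraries, and the ratio to the mean of the other 5 E17 libraries was 6.41. The receptors *Epha5* (5.65), *Robo2* (5.53) and *Unc5d* (5.35) followed. For 32 members the ratio was above 2. For 10 it lay between 0.8 and 1.2, and *Nrp1* (1.01) and *Sema4d* (0.91) were among these, while *Plxnc1* was at 1.43 and *Epha2* at 0.76. *Dcc*, a member of the neurite list of the study, had a log2 difference of 0.81 at E17 that became -0.06 without this library. *Ntn1* (0.80) and *Efnb1* (0.53, unadjusted p = 0.0619), on the same list, had differences of 0.38 and 0.026 without it.

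A second E17 library differed in another way. E17 MIA library 3 had the most endothelium and mural markers of the E17 libraries (5481 TPM, the others 1170.2 to 3564 TPM) and of choroid plexus markers (12142 TPM), and it held the highest E17 value of *Plxnd1* (251 TPM), *Sema7a* (197 TPM), *Unc5b* (163 TPM) and *Sema3g* (97.9 TPM). The part of these cells in the values was not tested.

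**Figure D3:**
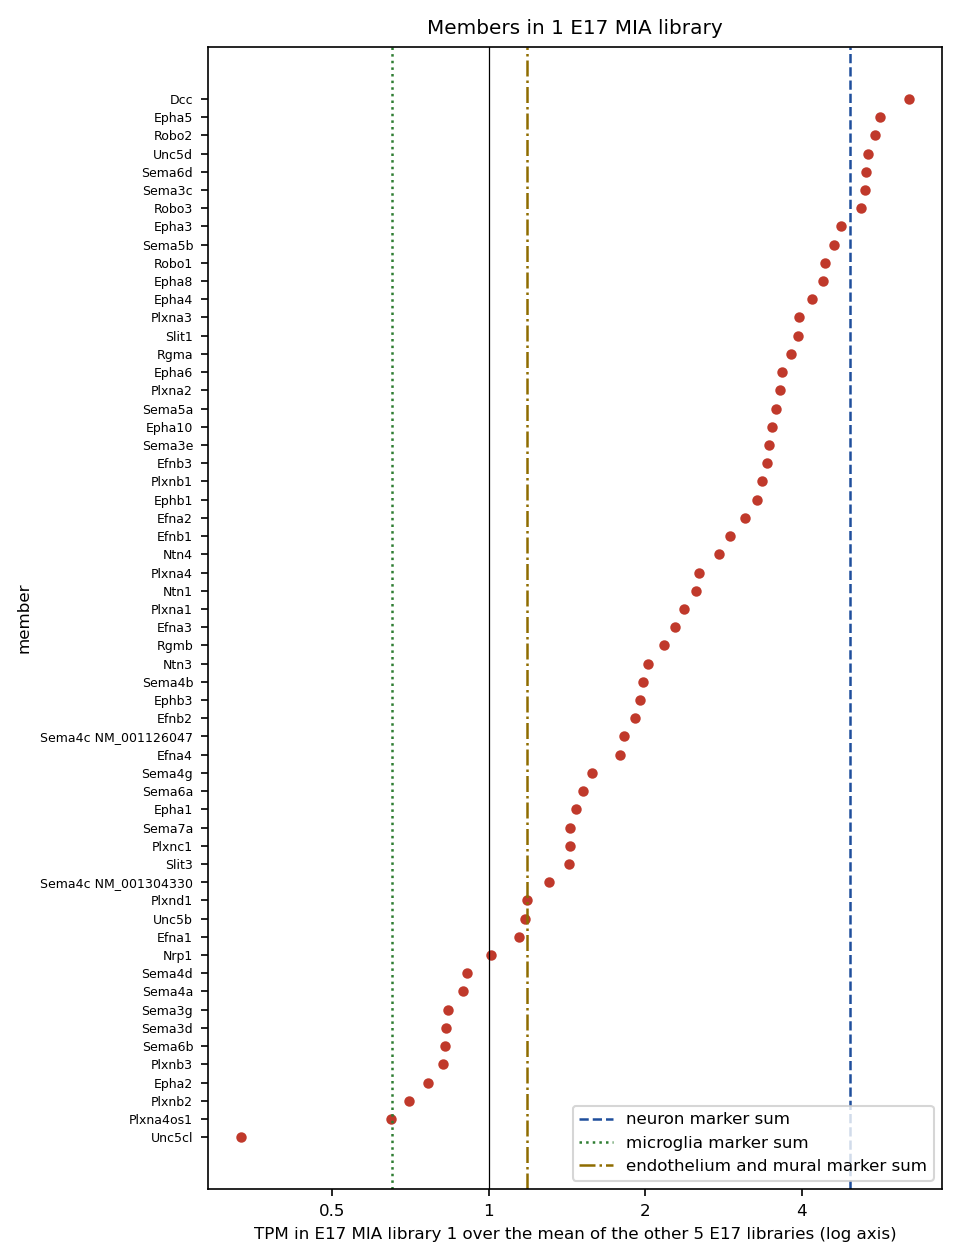
Ratio of E17 MIA library 1 to the mean of the other 5 E17 libraries (log axis) for each of 58 members. Lines mark the same ratio for the summed neuron (4.95), microglia (0.65) and endothelium and mural markers (1.19). The median over members is 2.33, with *Dcc* at 6.41 and *Nrp1* at 1.01.

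Depletion and repopulation of microglia changed 14 members in Saline offspring: 12 fell and 2 rose, while 14.9% of all transcripts fell and 11.9% rose. *Sema4g*, *Plxna4* and *Efnb1* fell the most, and the rises were those of *Plxnc1* and *Epha2*. In MIA offspring 1 member, *Sema4b*, was called for the same treatment (0.555% of all transcripts, in either direction). The members' median log2 change was -0.44 in Saline (-0.14 for all transcripts) and -0.12 in MIA offspring (-0.08). After median-ratio scaling, 57.5% of all calls in Saline offspring were rises, against 44.3% for the TPM as deposited, and members were then called as 4 rises and 11 falls.

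Transmembrane ligands and a plexin led the falls. *Sema4g*, a transmembrane semaphorin of class 4, was at 103, 77.4 and 108 TPM in Saline + CTRL and at 6.5, 24.4 and 18.7 TPM in Saline + MG-REP (log2 change -2.63 ± 0.31, SE, adjusted p = 4.5e-07). In MIA + CTRL it was at 84.1, 91.5 and 91.5 TPM and in MIA + MG-REP at 72.3, 74.0 and 66.6 TPM (log2 change -0.32 ± 0.31, SE, adjusted p = 0.978). The 3 Saline + MG-REP libraries were below all other 27 libraries. *Plxna4* followed the same course, with 39.3, 35.4 and 51.2 TPM in Saline + CTRL, 3.66, 9.32 and 9.22 TPM in Saline + MG-REP, 31.3, 36.1 and 38.0 TPM in MIA + CTRL and 25.7, 29.7 and 28.2 TPM in MIA + MG-REP. Its log2 change was -2.43 ± 0.30 (SE, adjusted p = 9.93e-07) in Saline and -0.32 ± 0.30 (SE, adjusted p = 0.978) in MIA offspring.

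*Efnb1*, a transmembrane ephrin, was lower after repopulation in both. It had 56.8, 46.2 and 57.8 TPM in Saline + CTRL and 10.3, 13.1 and 14.2 TPM in Saline + MG-REP (log2 change -2.02 ± 0.27, SE, adjusted p = 3.48e-06). In MIA offspring the values were 46.4, 57.0 and 57.8 TPM without and 29.3, 36.8 and 33.6 TPM with repopulation, which do not overlap, but the change of -0.68 ± 0.27 (SE) had an adjusted p of 0.584. *Rgmb*, the repulsive guidance molecule that had risen with age, was at 109.5, 94.5 and 123 TPM in Saline + CTRL and 38.3, 48.9 and 51.2 TPM in Saline + MG-REP (log2 change -1.23 ± 0.20, SE, adjusted p = 4e-05). In MIA offspring it was at 93.1, 107 and 105 TPM and at 110.1, 119 and 104 TPM (0.13 ± 0.20, SE).

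*Plxnc1* went the other way. It was at 8.03, 10.5 and 6.45 TPM in Saline + CTRL and at 31.7, 27.8 and 22.7 TPM in Saline + MG-REP (log2 change 1.61 ± 0.21, SE, adjusted p = 1.75e-06), a range that overlaps that of E17 Saline (27.5 to 31.3 TPM). In MIA + CTRL it was at 9.75, 8.87 and 6.60 TPM and in MIA + MG-REP at 6.93, 6.99 and 8.85 TPM (-0.12 ± 0.21, SE). *Epha2*, an Eph receptor, had 79.3, 74.5 and 68.4 TPM in Saline + CTRL and 152, 108 and 106 TPM in Saline + MG-REP (log2 change 0.70, adjusted p = 0.0133). Its change in MIA offspring was 0.55 (adjusted p = 0.48), and the 2 changes differed by -0.14, with a 95% interval from -0.74 to 0.46.

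**Figure D4:**
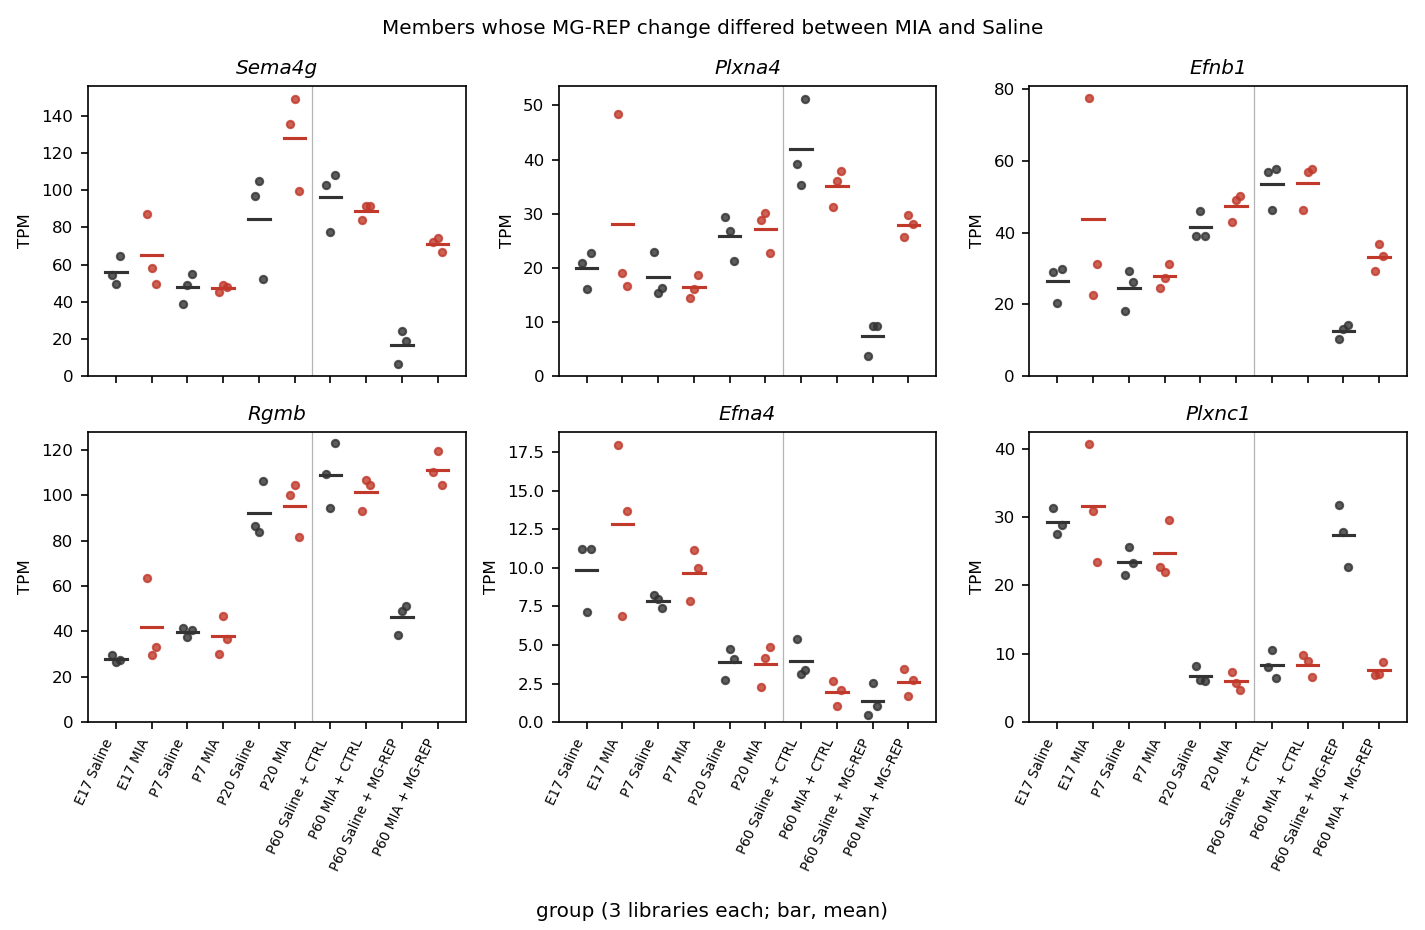
TPM per library (points) and group mean (bar) in all 10 groups for *Sema4g*, *Plxna4*, *Efnb1*, *Rgmb*, *Efna4* and *Plxnc1*, with Saline in black and MIA in red. At P60 the Saline + MG-REP libraries stand below the other 3 groups for the first 4 genes and above them for *Plxnc1*, while *Efna4* overlaps.

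Of the other members that fell in Saline offspring, *Ephb3*, a receptor of B-class ephrins, changed by a log2 of -1.32 (adjusted p = 0.00216), from 14.1, 23.8 and 13.3 TPM to 2.65, 8.54 and 8.85 TPM. In MIA offspring it changed by -0.93 (adjusted p = 0.319), and the difference between the 2 changes was 0.39 with a 95% interval from -0.51 to 1.29. *Ntn4* (-1.25, adjusted p = 0.00969), *Efnb2* (-1.21, adjusted p = 0.0111), *Efna4* (-1.15, adjusted p = 0.0121), *Sema3g* (-1.0, adjusted p = 0.0393), *Sema4b* (-0.73, adjusted p = 0.00912), *Plxna4os1* (-0.70, adjusted p = 0.0323) and *Plxnb2* (-0.48, adjusted p = 0.0295) completed the 12. The last is a transcript under 2 TPM in every library. *Ntn1* and *Dcc* were not called (log2 change -0.98, adjusted p = 0.0875, and -0.26, adjusted p = 0.761). *Sema4b* was the member called in MIA offspring, where it fell by 1.02 (adjusted p = 0.0135) from 49.98, 46.3 and 43.1 TPM to 23.9, 18.1 and 25.6 TPM. It lost that call without MIA + CTRL library 1 (-0.97, adjusted p = 0.0711), MIA + CTRL library 2 (-1.02, 0.0695) or MIA + MG-REP library 2 (-0.88, 0.143).

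Saline + MG-REP library 1 carried several of these calls. Without it, 1 member rose and 6 fell: *Efna4* (log2 change -0.85, adjusted p = 0.109), *Efnb2* (-0.78, 0.13), *Ntn4* (-1.11, 0.0561), *Sema3g* (-0.75, 0.217) and *Epha2* (0.53, 0.11) were among those no longer called. The 6 that still fell were *Sema4g*, *Plxna4*, *Efnb1*, *Rgmb*, *Ephb3* and *Sema4b*, so *Plxna4os1* and *Plxnb2* were lost as well. *Efna4* was also lost without Saline + CTRL library 1 (-0.95, 0.0736), and *Sema3g* without Saline + CTRL libraries 1 (-0.81, 0.166) or 2 (-1.01, 0.0789) or Saline + MG-REP library 3 (-0.99, 0.0767). *Sema4g*, *Plxna4*, *Efnb1*, *Rgmb* and *Plxnc1* were called without any single library. The sum over all 58 members was 1004 TPM in Saline + MG-REP and 1461 TPM in Saline + CTRL, a ratio of 0.687 whose groups do not overlap (p = 0.1 by a two-sided exact permutation test, which with 3 libraries in each group cannot give less).

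Markers of several cell types moved with repopulation in Saline offspring. The 6 microglia markers summed to 25446 to 36590.2 TPM in Saline + CTRL and 18104 to 19898 TPM in Saline + MG-REP, and *P2ry12*, a receptor of homeostatic microglia, went from between 3422 and 4721 TPM to between 609 and 950 TPM. In MIA + MG-REP the sum was 28078 to 31192 TPM. Endothelium and mural markers (10 with a row) were at 1358 to 2177 TPM in Saline + CTRL, 511 to 1056 TPM in Saline + MG-REP, with *Emcn* under 1 TPM, and 1561 to 2077 TPM in MIA + MG-REP. Border macrophage markers (5 with a row, *Cd163* under 1 TPM in each group) were at 332 to 436, 597 to 1185 and 195 to 297 TPM in these groups. In Saline offspring 1 of these 5 was called higher after repopulation and 1 lower, with a median log2 change of -0.09. *Pf4* was at 156, 133 and 122 TPM in Saline + CTRL and at 901, 422 and 408 TPM in Saline + MG-REP. *Mrc1* overlapped, at 212, 197 and 176 TPM and at 241, 160 and 158 TPM in these 2 groups. Neuron markers overlapped, at 129 to 381 TPM and 81.7 to 344 TPM. *Xist*, expressed in female cells, was at 0.29 TPM or less in 2 of 3 libraries of each CTRL group and at 159 TPM or more in all 6 MG-REP libraries, and with *Xist* as a covariate 1 member rose and 10 fell in Saline offspring. The part of these cells and of sex in the members' changes was not tested.

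The change with repopulation differed between MIA and Saline offspring for 6 members, 5 with a higher and 1 with a lower change in MIA offspring (4.42% and 6.09% of all transcripts). This test of the difference asked whether the treatment acts alike on the offspring of both kinds of dam. The difference of the log2 changes was 2.31 ± 0.43 (SE) for *Sema4g* (adjusted p = 0.000846), 2.11 ± 0.42 for *Plxna4* (adjusted p = 0.00157), 1.36 ± 0.28 for *Rgmb* (adjusted p = 0.00204) and -1.74 ± 0.29 for *Plxnc1* (adjusted p = 0.000251). It was 1.34 ± 0.38 for *Efnb1* (adjusted p = 0.0244) and 1.47 ± 0.47 for *Efna4* (adjusted p = 0.0475). *Efna4*, a ligand at low levels, was at 5.41, 3.10 and 3.35 TPM in Saline + CTRL, 0.45, 2.56 and 1.03 TPM in Saline + MG-REP, 2.68, 1.04 and 2.05 TPM in MIA + CTRL and 3.45, 1.69 and 2.74 TPM in MIA + MG-REP, with groups that overlap in MIA offspring.

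Calls of *Sema4g*, *Plxna4*, *Rgmb* and *Plxnc1* for this difference held without any single library. *Efnb1* lost its call without Saline + CTRL libraries 1 (1.29, adjusted p = 0.0556) or 3 (1.28, 0.0578), MIA + CTRL library 1 (1.24, 0.0606), Saline + MG-REP library 1 (1.22, 0.0767) or MIA + MG-REP library 2 (1.27, 0.0644). *Efna4* lost it in 8 of 12 such omissions, with values from 1.17 without Saline + MG-REP library 1 (adjusted p = 0.17) to 1.55 without Saline + CTRL library 3 (adjusted p = 0.065). *Sema3g* (1.45, adjusted p = 0.0692), *Ntn4* (1.37, adjusted p = 0.0856) and *Plxnb2* (0.64, adjusted p = 0.0817) were not called.

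**Figure D5:**
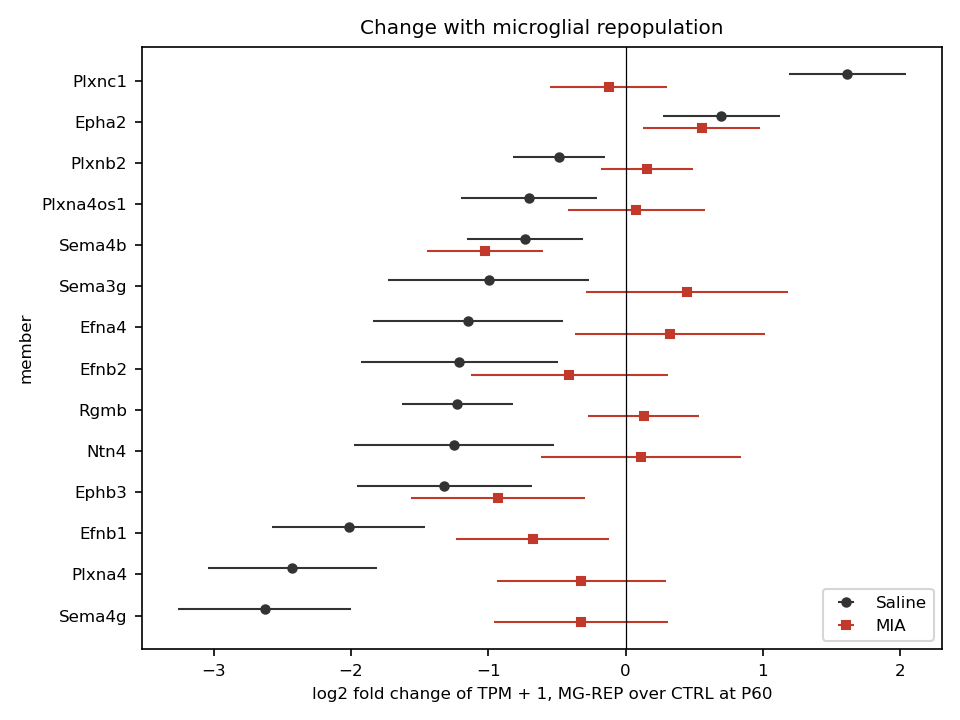
Log2 change of log2(TPM + 1) with repopulation (horizontal axis) for the 14 members called in Saline offspring (rows), with 95% intervals of the limma fit. Black circles are Saline and red squares MIA offspring. *Sema4g* changed by -2.63 in Saline and -0.32 in MIA offspring, *Plxnc1* by 1.61 and -0.12, and *Sema4b* by -0.73 and -1.02.

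Side by side after repopulation, MIA offspring had higher levels than Saline offspring for 8 members and lower levels for 3 (10.9% and 11% of all transcripts). The higher were *Sema4g* (log2 difference 2.21, adjusted p = 8.96e-06), *Plxna4* (1.87), *Sema3g* (1.46), *Efnb1* (1.34), *Ntn4* (1.30), *Rgmb* (1.26), *Unc5cl* (1.17) and *Plxnb2* (0.55). *Plxnc1* (-1.72, adjusted p = 1.14e-06), *Epha2* (-0.63, adjusted p = 0.0291) and *Nrp1* (-0.50, adjusted p = 0.0216) were lower. *Nrp1* was at 206, 177 and 169.8 TPM in Saline + MG-REP and 133, 142 and 114 TPM in MIA + MG-REP. This comparison and the one of repopulation in Saline offspring share the Saline + MG-REP libraries. *Ntn4* (1.16, adjusted p = 0.0592), *Epha2* (-0.47, 0.205) and *Nrp1* (-0.42, 0.129) were not called without Saline + MG-REP library 1, and the latter 2 were also lost without MIA + MG-REP library 3 (-0.46, 0.165, and -0.41, 0.107). Without Saline + MG-REP library 1, 6 members were called in all. *Rgmb*, *Unc5cl* and *Plxnb2* were not followed singly through this omission. With the replicate number as a block, 13 members were higher and 4 lower.

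The promoter windows of the members whose repopulation change differed between the offspring are shown because these members carry the main contrast. They are the 250 bases before the transcription start in RefSeq on GRCm38.p6 (the build mm10), for the 4 of the 6 genes with 1 window each. Capitals mark matches, on either strand, to 3 motifs chosen after the sequences were seen: GAGGAA, a core of sites of the myeloid factor PU.1; a GAAA followed after 2 bases by a second GAAA, of interferon regulatory factors; and TGANTCA, of AP-1. The sequences are given from 5′ to 3′ on the strand of the gene.
*Plxnc1* (chr10:94944846-94945095, minus strand): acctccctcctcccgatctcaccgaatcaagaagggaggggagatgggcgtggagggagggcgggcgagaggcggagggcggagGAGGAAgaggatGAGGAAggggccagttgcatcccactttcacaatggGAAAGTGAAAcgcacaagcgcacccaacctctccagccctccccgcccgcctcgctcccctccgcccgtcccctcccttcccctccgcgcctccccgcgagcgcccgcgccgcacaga
*Sema4g* (chr19:44989094-44989343, plus strand): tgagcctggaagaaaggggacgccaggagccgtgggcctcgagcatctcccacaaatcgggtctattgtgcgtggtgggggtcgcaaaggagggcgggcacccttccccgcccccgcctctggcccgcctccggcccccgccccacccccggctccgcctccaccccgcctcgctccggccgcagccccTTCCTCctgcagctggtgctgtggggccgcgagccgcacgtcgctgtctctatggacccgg
*Efnb1* (chrX:99135811-99136060, plus strand): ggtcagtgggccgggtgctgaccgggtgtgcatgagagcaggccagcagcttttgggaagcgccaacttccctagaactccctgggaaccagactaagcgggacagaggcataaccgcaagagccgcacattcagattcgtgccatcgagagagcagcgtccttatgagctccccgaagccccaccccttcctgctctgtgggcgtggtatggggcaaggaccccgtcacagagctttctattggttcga
*Efna4* (chr3:89338029-89338278, minus strand): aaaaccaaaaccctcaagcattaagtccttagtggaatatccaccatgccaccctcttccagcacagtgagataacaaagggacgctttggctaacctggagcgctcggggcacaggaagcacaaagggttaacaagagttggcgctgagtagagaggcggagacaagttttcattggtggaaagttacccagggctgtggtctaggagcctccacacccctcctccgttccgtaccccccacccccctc

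*Plxnc1*, the member that rose, has 2 matches of GAGGAA and 1 of the paired GAAA in its window, and *Sema4g*, the member that fell the most, has 1 of GAGGAA on the opposite strand. No match lay in the windows of *Efnb1* and *Efna4*. GAGGAA stood in 23.3% of all 32851 RefSeq windows and in 20 of the 63 windows of 47 members (31.7%), the paired GAAA in 2.98% and 2 (3.17%), and TGANTCA in 6.75% and 3 (4.76%). CpG dinucleotides numbered 22 in the window of *Plxnc1*, 24 in *Sema4g*, 13 in *Efnb1* and 7 in *Efna4*, against a median of 15 over the members and 6 over all windows. GC content was 68.8%, 73.2%, 60% and 54.4% in the same order, with medians of 64% and 52.4%. A match is a description of letters and not a site.

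Downstream of the receptors, a list of signal transducers (45 of 50 genes with a row, 54 transcripts) and one of co-receptors, sheddases and alternative partners (22 of 29 genes, 23 transcripts) were counted. From E17 to P60 in Saline offspring, 11 transcripts of transducers rose and 16 fell, and 3 of the second list rose and 7 fell, beside 22.1% and 25.4% of all transcripts. *Dpysl5* and *Crmp1*, collapsin response mediators of growing neurons, fell by 3.68 and by 2.25 on the log2 scale, *Cfl1*, the actin-severing cofilin, fell by 1.63, and *Chn2*, a chimaerin that acts on Rac, rose by 1.71. On the second list, *Draxin*, a netrin-binding cue, *Kdr*, a VEGF receptor, *L1cam* and *Sdc1* fell by 3.45, 2.35, 2.28 and 1.91. *Kdr* is also one of the endothelium and mural markers used here. The part of other cell types in these changes was not tested.

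After repopulation in Saline offspring, 7 transcripts of transducers rose and 9 fell, and 3 of the second list rose and 2 fell, beside 11.9% and 14.9% of all transcripts. *Srgap2*, a Slit-Robo GTPase-activating protein abundant in these libraries, was at 413 ± 67.1 TPM in Saline + CTRL and 182 ± 25.7 TPM in Saline + MG-REP (SD, n = 3, log2 change -1.17, adjusted p = 2.23e-07). *Mical3* (-1.45), *Abl1* (-0.99) and *Trio* (-0.98), a guanine nucleotide exchange factor used by netrin receptors, were also lower. *Sdc3*, a heparan sulfate proteoglycan, was at 199 ± 39.4 TPM and 516 ± 44.0 TPM (log2 change 1.39, adjusted p = 1.22e-05), and *Tyrobp*, a signalling adaptor of myeloid receptors, rose by 0.80, while *Bmpr1a* and *Mycbp2* fell by 0.95 and 0.51.

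In MIA offspring, no gene of either list was called after repopulation. The difference between the offspring was called for 9 transcripts of transducers (6 higher and 3 lower in MIA) and 1, a lower one, of the second list, beside 4.42% and 6.09% of all transcripts. *Abl1* (1.09), *Srgap2* (1.05) and *Trio* (0.91) had the largest higher differences, and *Vav3* (-0.90) and *Sdc3* (-0.91) were lower. Between MIA and Saline offspring, neither list had a call at E17, P7 or P20 or in the CTRL groups at P60. After repopulation 9 transcripts of transducers were higher and 5 lower in MIA offspring, with 3 and 1 for the second list, beside 10.9% and 11% of all transcripts.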

How the data were processed

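Microglia were isolated with CD11b beads, and non-stranded poly(A) libraries were read as 40-base single ends. The authors used Rsubread for alignment to mm10 and featureCounts with a UCSC annotation for counting. Their filter asked for a CPM of 2 or more in 3 or more of the 30 libraries. What they deposited is TPM, for 14225 transcripts, next to a module label. The formula of the TPM is not given in the sources used here, no counts were at hand and TPM keep no depth, so no count model, interval or floor was computed.

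In R 4.3.3, limma 3.58.1 compared log2(TPM + 1) in 1 fit of all 30 libraries with a mean per group and a mean-variance trend. The study's own fit was a count model, for which this stands in. Tests are two-sided, with Benjamini-Hochberg adjustment over 14225 transcripts at 0.05. All p-values measure the spread between libraries, and the labels give no sex, litter or batch. Sums were compared by exact permutation tests. The fit was checked on simulated data.

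Named are the 10 members with the highest mean TPM, those called in a comparison whose groups do not overlap (up to 10 rises and 10 falls for E17 to P60 and for repopulation in Saline offspring, otherwise up to 5 each), the 3 with the smallest p where none was called, and *Ntn1*, *Dcc* and *Efnb1*. Other members were named after their values were seen. Calls of members that this rule did not pick for a comparison were not followed singly through the alternatives and omissions. The members, the marker lists and the pathway lists were chosen with earlier results of these data known. Of the microglia markers, 1 is not reported here and was left out of the sums.

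Same-numbered libraries deviated together (all correlations over 0.1) only at P20, with correlations of 0.238, 0.104 and 0.132 between Saline and MIA. This pairing rests on the values and no label states it. The alternatives were a pseudocount of 0.1, a mean TPM of at least 1 (12644 transcripts, 49 members), median-ratio scaling (factors 0.825 to 1.24), quantile normalization, no trend, only the groups compared, *Xist* as a covariate, the replicate number as a block, and each library left out in turn. Python 3.11.15 with matplotlib 3.10.9 made the figures.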

Additional observations from a re-analysis of the deposited data

Results flagged for a closer look

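For 6 of 58 members (10.3%) the change with repopulation differed between MIA and Saline offspring by the test of the difference itself (limma, Benjamini-Hochberg adjusted p under 0.05 over all transcripts). The same test called 1496 of 14225 transcripts, so the members' share is close to that of all transcripts. The change was higher in MIA offspring for 8.62% of members and lower for 1.72%, beside 4.42% and 6.09% of all transcripts. The difference of the log2 changes was 2.31 for *Sema4g*, 2.11 for *Plxna4*, 1.47 for *Efna4*, 1.36 for *Rgmb*, 1.34 for *Efnb1* and -1.74 for *Plxnc1*. The MIA + MG-REP libraries lay closer to the CTRL groups than the Saline + MG-REP libraries did for each of these but *Efna4*, whose groups overlap. The sum of the 6 microglia markers was 18104 to 19898 TPM in Saline + MG-REP and 28078 to 31192 TPM in MIA + MG-REP. By the test of the difference, 3 of these 6 markers were called, each with a higher change in MIA offspring. Of 11 endothelium and mural transcripts 1 was called, also higher. The part of these cells in the 6 results was not tested.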

How the results depend on the processing

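Across the alternatives other than leaving out a library, 661 values of single members or their tests kept their direction and side of the threshold, 19 kept only the direction and 1 passed the threshold anew. That 1 was *Ntn1* after repopulation in Saline offspring, with an adjusted p of 0.0419 under the replicate block. The replicate block also gave 17 members in place of 11 for MIA against Saline after repopulation. From P20 to P60, where 1 member was called, there were 0 with a pseudocount of 0.1, with the replicate block, with only the groups compared and with *Xist* as a covariate, and 2 after quantile normalization. The fit of only the groups compared gave 17 in place of 34 members from E17 to P60 in MIA offspring and 8 in place of 14 for repopulation in Saline offspring. *Xist* as a covariate gave 0 in place of 1 for repopulation in MIA offspring. The causes were not tested. Leaving out each library in turn gave 0 to 4 members from E17 to P7, 13 to 17 from P7 to P20, 0 to 1 from P20 to P60, 25 to 31 and 26 to 36 from E17 to P60 in Saline and MIA offspring, 7 to 15 and 0 to 1 for repopulation in Saline and MIA offspring, 6 to 13 for MIA against Saline after repopulation and 4 to 8 for the difference in the repopulation change. The lowest for both 7 and 6 was without Saline + MG-REP library 1. Directions reversed for *Dcc* at E17 (-0.062 without E17 MIA library 1 to 1.26), for *Dcc* with repopulation in Saline offspring (-0.45 to 0.031, the latter without Saline + CTRL library 2) and for *Ntn1* from E17 to P60 in Saline offspring (-0.17 to 0.46), none of which was called. Depth is unknown, so the reads behind values under 1 TPM cannot be given, and 3 libraries a group limit all tests.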
